A study of Mus musculus with 9 samples.

Results

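The YAP/TAZ pathway and target genes were examined in 9 mouse mammary tumours. They are 9 of the 14108 genes listed for each tumour and were taken by symbol, whatever their counts. *Yap1* and *Wwtr1* encode the transcriptional coactivators YAP and TAZ, *Tead1* encodes a DNA-binding partner of both, and *Lats1* and *Lats2* encode the kinases that phosphorylate them. *Ccn1* (also called Cyr61), *Ccn2* (also called Ctgf), *Ankrd1* and *Amotl2* are target genes. All 9 genes were listed and all 9 passed the filter on low counts.

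The tumours came from 3 models with 3 tumours each, named HR1, LM1 and LM9. Cells (250000 per injection) were grown in the mammary fat pads of female NOD/SCID mice aged 4 to 8 weeks. These hosts have no mature B or T cells. Tumours were taken out while smaller than 1500 mm3. GFP+ cells were then sorted for RNA-seq. HR1 is a non-metastatic line from a mammary tumour of a mouse that expressed the PIK3CA H1047R mutant under the CAG promoter. LM1 and LM9 derive from lung metastases that formed from HR1 cells with a doxycycline-mobilized *piggyBac* transposon, so they share the transgene with HR1, and the labels do not say whether the HR1 tumours carry the transposon. Each LM model is 1 line, and a trait of that line cannot be told apart from a trait of metastatic cells. The labels do not tie the tumours to separate mice, so p-values measure the spread between these tumours only.

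In the Hippo pathway a kinase cascade of MST kinases, their scaffold SAV1, MOB1 adaptors and LATS kinases phosphorylates YAP and TAZ, which keeps them out of the nucleus and marks them for degradation. Unphosphorylated YAP and TAZ bind TEAD factors and raise transcription of genes for matrix-associated proteins, cytoskeletal regulators and inhibitors of the pathway itself. The pathway responds to cell contacts, matrix stiffness and actin tension, and is studied in breast cancer for its part in growth and metastasis. Regulation acts mainly on the proteins, so mRNA levels of *Yap1* and *Wwtr1* are not a measure of their activity.

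Total counts lay between 32393958 and 46681945 per tumour, and levels are given as CPM, counts scaled to library size with the TMM factors of edgeR. The tumour labelled HR1 replicate 1 went against its label for some genes. *Nfib*, the gene that the study followed, was at 1343 CPM in it but at 23.9 and 18.3 CPM in HR1 replicates 2 and 3, against 421 to 791 CPM in the LM tumours. That tumour also stood apart across genes, with a Pearson's r of log2 CPM of 0.871 and 0.885 to the other HR1 tumours, which had 0.958 to each other. *Tead1* was at 125 CPM in that tumour, within the 86.2 to 166 CPM of the LM tumours and above the other HR1 tumours (46.1 and 62.3 CPM). For *Cdh5* that tumour was like HR1, at no more than 13.4 CPM of total counts in any HR1 tumour and at least 138 CPM in the LM tumours. Fold changes of the members and of the named list genes in LM1 and LM9 versus HR1 are given with and without the tumour labelled HR1 replicate 1. Of the mammary epithelial markers, *Epcam* was at 0.026 to 4.17 and *Cdh1* at 0.089 to 1.11 CPM of total counts, while *Krt14* was at 160 to 181 CPM in LM1, 1.45 to 110 CPM in HR1 and 12.2 to 14.9 CPM in LM9. Of the 10 listed fibroblast markers, 9 were lower in LM1 and LM9 than in HR1, and their summed level was 23448 to 32731 CPM in HR1 but 8849 to 14535 CPM in LM tumours. Of the 10 listed leukocyte markers 7 were lower, from a summed 176 to 723 CPM in HR1 to 148 to 232 CPM in LM tumours, with *Ptprc* at 2.32 to 11.3 CPM over the 9 tumours. Of the 9 listed endothelial markers 2 (*Cdh5* and *Kdr*) were higher and 6 lower, from a summed 21.8 to 51.9 CPM in HR1 to 176 to 297 CPM in LM tumours, and *Pecam1*, which defines these cells, was at 0.38 to 6.42 CPM. Of the 8 listed epithelial markers 4 were lower, with a summed 103 to 655 CPM in HR1, 231 to 263 CPM in LM1 and 15.9 to 19.0 CPM in LM9. The part of these markers in the results below was not tested. In bulk RNA fewer cells of a type cannot be told apart from less RNA per cell, nor from expression of these genes by the sorted GFP+ tumour cells themselves.

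Per exon length (RPKM, which is CPM per kilobase of exon), *Ccn1*, which encodes a secreted matrix-associated protein, had the highest level, with a median over the 9 tumours of 376 and a range of 196 to 510 RPKM. *Wwtr1* followed at 39.4 RPKM (33.2 to 75.0), then *Amotl2* at 17.6 RPKM (8.63 to 26.8) and *Yap1* at 10.5 RPKM (8.14 to 46.0). *Ccn2*, *Tead1*, *Lats1*, *Lats2* and *Ankrd1* had medians of 8.24, 7.69, 7.47, 5.83 and 5.79 RPKM, and their ranges overlapped each other and those of *Yap1* and *Amotl2*, except that *Lats2* reached 8.47 RPKM at most, below each *Amotl2* value. *Ccn1* lay above every other member in each range, and *Wwtr1* lay clear of each member but *Yap1* and *Ccn2*.

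**Figure D1:**
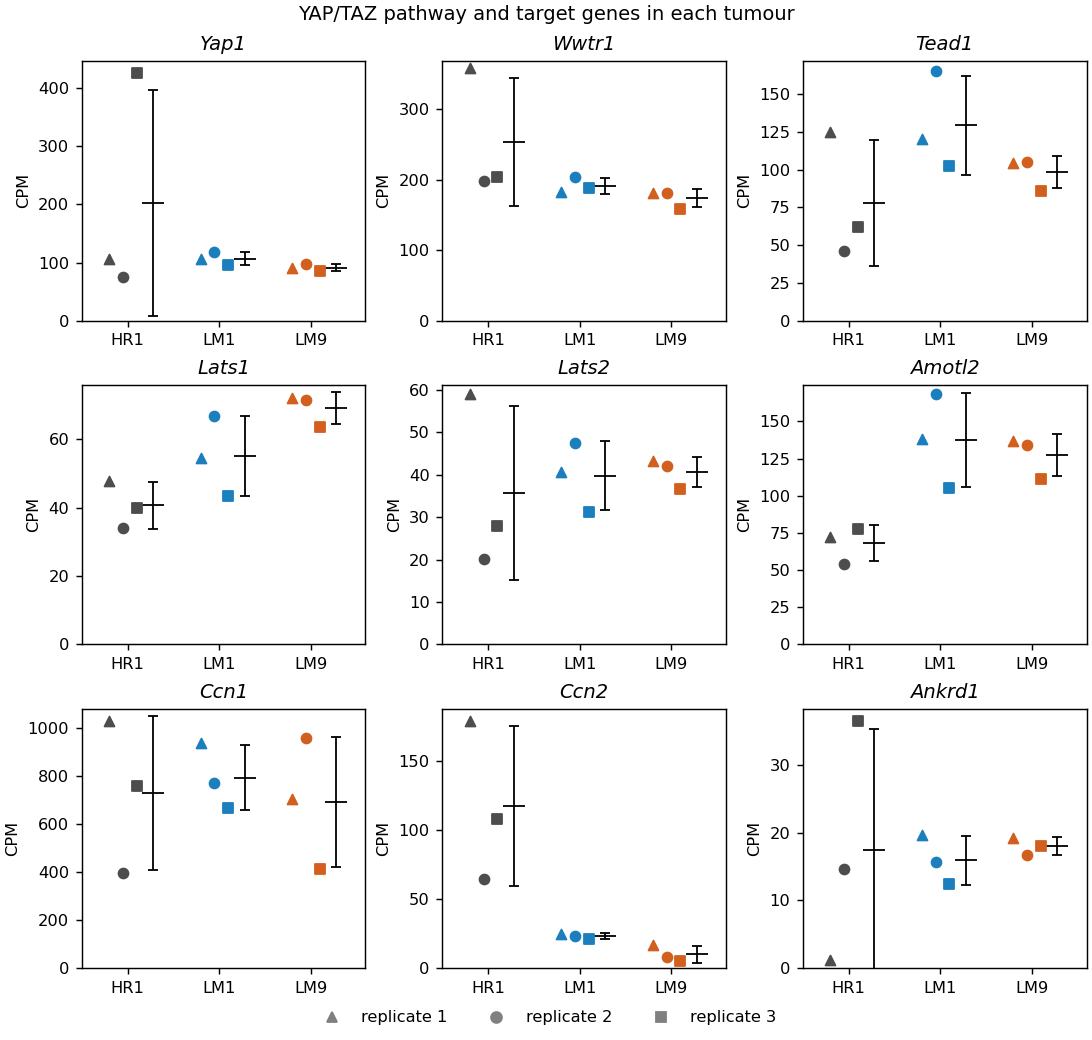
CPM of the 9 genes in each tumour, by model; symbols are replicates 1 to 3, and black bars are means ± s.d. (n = 3), cut at 0 for *Ankrd1* in HR1. *Ccn2* and *Amotl2* separate HR1 from the 6 LM tumours, and HR1 replicate 3 stands apart for *Yap1* at 426 CPM.

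When LM1 and LM9 were set together against HR1, 3 of the 9 genes passed an adjusted p of 0.05 in edgeR's quasi-likelihood test (Benjamini-Hochberg over all genes tested), where 43.6% of all genes did. *Amotl2* and *Lats1* were higher in LM tumours (19.9% of all genes were higher) and *Ccn2* was lower (23.6% lower). The groups did not overlap for *Ccn2* and *Amotl2*, 2 of 9, against 29.9% of all genes. For LM1 alone 2 genes passed, 1 higher and 1 lower, against 35.5% of all genes (16.7% higher, 18.7% lower), and 2 did not overlap against 45.6%. For LM9 alone 3 genes passed, 2 higher and 1 lower, against 42.3% (20.4% higher, 21.9% lower), and 4 did not overlap against 53.3%. These comparisons share the HR1 tumours. The called shares of the 9 genes were 33.3%, 22.2% and 33.3%, which lay below those of all genes here but above them without the tumour labelled HR1 replicate 1, so nothing is read from them. The median log2 fold change of the 9 genes was 0.02 for LM1 and LM9 together, with a median of −0.05 over all genes tested, and it ranged from −2.95 for *Ccn2* to 0.96 for *Amotl2*.

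Without the tumour labelled HR1 replicate 1, 6 of 9 genes passed for LM1 and LM9 together, 4 higher and 2 lower, which is 66.7% against 56.0% of all genes. The corresponding counts were 5 for LM1 (55.6% against 52.8% of all genes) and 6 for LM9 (66.7% against 55.7%). *Tead1* and *Lats2* were then added in all of these comparisons to the genes higher in LM tumours. *Yap1* was added to those lower for LM1 and LM9 together and for LM9, but not for LM1 (adjusted p = 0.0858, edgeR), where *Lats1* was the other gene added. Without HR1 replicate 3, which had the outlying *Yap1* level, 4, 2 and 4 genes passed in the same comparisons, against 42.7%, 36.6% and 43.5% of all genes.

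**Figure D2:**
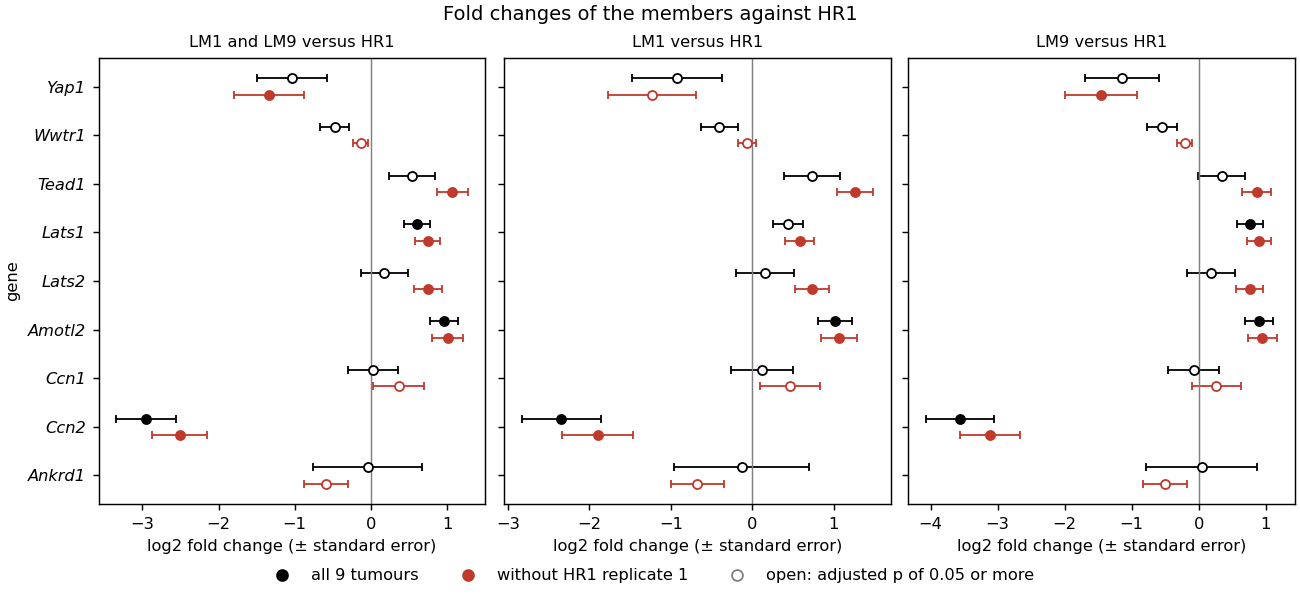
Log2 fold change ± standard error of the 9 genes against HR1 in the 3 comparisons, with all tumours (black) and without the tumour labelled HR1 replicate 1 (red); filled points have an adjusted p under 0.05 in edgeR's quasi-likelihood test. *Ccn2* and *Amotl2* were called in all 6 fits shown, *Tead1* and *Lats2* only in the red ones.

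*Yap1* (chromosome 9, 7931999 to 8004638 of GRCm38) was at 106, 75.3 and 426 CPM in HR1 replicates 1, 2 and 3. In LM1 it was at 107, 117 and 95.3 CPM, and in LM9 at 90.4, 97.6 and 85.8 CPM. HR1 replicate 2 was the lowest tumour, the 6 LM tumours lay close to HR1 replicate 1, and HR1 replicate 3 had 3.63 times the next highest level. With all tumours LM1 and LM9 versus HR1 gave a log2 difference of −1.04 (s.e., the standard error, 0.46, adjusted p = 0.0970, edgeR). It was −1.34 (adjusted p = 0.0347, edgeR) without the tumour labelled HR1 replicate 1, and 0.12 (s.e. 0.16, adjusted p = 0.574, edgeR) without HR1 replicate 3. Without HR1 replicate 2 it was −1.43 (adjusted p = 0.0231, edgeR). The direction of the *Yap1* difference therefore rested on HR1 replicate 3. *Yap1* shares exonic bases with *Gm20416* on the opposite strand, and the strand setting of the counts is not given in the sources used here.

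The genes around *Yap1* were looked at after its values were seen. Of 11 genes within 1 Mb of *Yap1*, itself included, averaging 5 CPM or more, 9 were highest in HR1 replicate 3, against 14.4% of the 10532 genes at that level. In 6 of the 11, HR1 replicate 3 had at least 3 times the median of the other 8 tumours, against 3.12% of genes. These 6 include *Yap1* itself, and also *Mmp3* and *Mmp13*, for which that median is set by the LM tumours. For *Mmp3* HR1 replicate 3 was the lowest HR1 tumour, at 73.4 CPM against 252 and 575 CPM. *Mmp13* was at 464 CPM in HR1 replicate 3, at 34.9 and 129 CPM in the other HR1 tumours and at most 3.71 CPM in LM tumours. *Tmem123*, which encodes a membrane protein, was at 539 CPM in HR1 replicate 3 and at 78.3 to 129 CPM in the others. *Dcun1d5* was at 311 CPM against 51.8 to 111 CPM, and *Cfap300* at 38.7 CPM against 5.07 to 10.5 CPM. The inhibitor of apoptosis genes *Birc2* and *Birc3*, between *Tmem123* and *Yap1*, were at 45.3 and 43.3 CPM, against at most 26.9 and 26.6 CPM elsewhere. *Trpc6* in the same stretch was at 4.43 CPM in this tumour and up to 41.2 CPM in the others. Among the neighbours of the other 8 members, *Lats2* had the next highest share, with 9 of 14 genes highest in the tumour labelled HR1 replicate 1 as *Lats2* itself was, against 21.7% of all genes. DNA copy number was not analysed here, and its part was not tested.

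**Figure D3:**
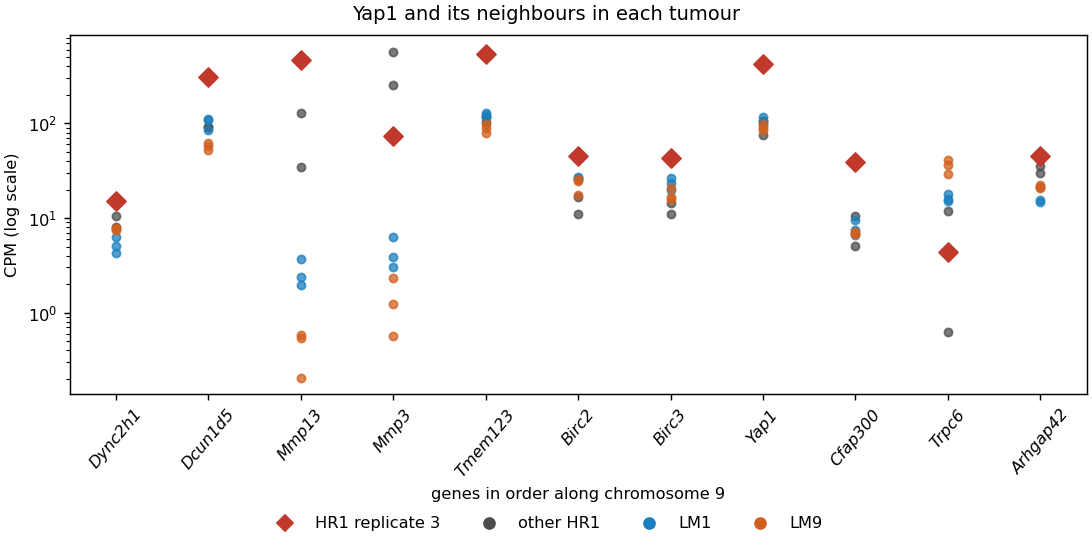
CPM (log scale) in each tumour of the 11 genes within 1 Mb of *Yap1* averaging 5 CPM or more, in chromosome order; red diamonds are HR1 replicate 3 and circles the other 8 tumours. The diamond is the highest point for 9 of 11 genes, from *Dync2h1* to *Arhgap42*, but not for *Mmp3* and *Trpc6*.

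*Wwtr1* (chromosome 3, 57455644 to 57575910) encodes TAZ. Its level was 358, 199 and 204 CPM in HR1, 182, 204 and 188 CPM in LM1, and 181, 181 and 159 CPM in LM9. The tumour labelled HR1 replicate 1 was the highest, LM1 overlapped HR1, and each LM9 tumour lay below each HR1 and LM1 tumour. For LM1 and LM9 versus HR1 the log2 fold change was −0.48 (s.e. 0.19, adjusted p = 0.0715, edgeR) and −0.14 (adjusted p = 0.275, edgeR) without the tumour labelled HR1 replicate 1. It passed without HR1 replicate 2 or 3 (−0.62 and −0.61, adjusted p = 0.0379 and 0.0405, edgeR). Per exon length the ratio of *Wwtr1* to *Yap1* was 3.30 to 3.88 in the LM tumours. It was 6.52, 5.11 and 0.93 in HR1 replicates 1, 2 and 3, so HR1 replicate 3 was the tumour with about as much *Yap1* as *Wwtr1*.

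*Tead1* (chromosome 7, 112679356 to 112906784) was at 125, 46.1 and 62.3 CPM in HR1. It was at 120.4, 166 and 102 CPM in LM1 and at 104, 105 and 86.2 CPM in LM9. HR1 replicates 2 and 3 lay below every LM tumour, and the tumour labelled HR1 replicate 1 lay among them. LM1 and LM9 versus HR1 gave a log2 fold change of 0.54 (s.e. 0.31, adjusted p = 0.182, edgeR) with it and 1.06 (s.e. 0.20, adjusted p = 0.0016, edgeR) without it.

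The other TEAD genes differed between the models. *Tead2* fell from 85.5, 119 and 83.9 CPM in HR1 to 44.8 to 66.4 CPM in LM1 and 21.2 to 30.6 CPM in LM9, a change of −1.37 on the log2 scale for LM1 and LM9 together (s.e. 0.18, adjusted p = 5.9e-04, edgeR). *Tead3* fell from 8.94, 16.9 and 27.1 CPM to 2.74 to 3.76 CPM in LM1 and 6.64 to 7.30 CPM in LM9 (log2 fold change −1.90, adjusted p = 0.0014, edgeR). *Tead4* rose from 1.90, 2.84 and 3.63 CPM to 6.68 to 8.22 CPM in LM1 and 17.1 to 20.7 CPM in LM9 (log2 fold change 2.07, s.e. 0.24, adjusted p = 3.8e-04, edgeR). For these genes no HR1 tumour overlapped an LM tumour, and without the tumour labelled HR1 replicate 1 the values were −1.45, −2.21 and 1.87 (adjusted p = 1.5e-04, 1.4e-05 and 4.2e-05, edgeR). The *Tead3* call for LM9 alone was lost without any 1 LM9 tumour (adjusted p of 0.0533 to 0.0567, edgeR). That of *Tead2* for LM1 alone was lost without LM1 replicate 1 or 2 (adjusted p = 0.0667 and 0.0622, edgeR).

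In a comparison per exon length, added after the values were seen, *Tead2* made up 61.7% to 78.8% of the summed RPKM of the TEAD genes in HR1. It made up 38.6% to 58.4% in LM1 and 23.8% to 30.5% in LM9. *Tead1* made up 10.7% to 31.8% in HR1, 31.7% to 50.3% in LM1 and 36.6% to 41.2% in LM9, and *Tead4* made up at most 3.71% in HR1 and 27.3% to 29.2% in LM9. The summed level was 27.2 to 31.6 RPKM in HR1, 21.7 to 24.3 RPKM in LM1 and 17.4 to 20.9 RPKM in LM9, without overlap between the models. *Vgll3*, a cofactor of TEAD factors, fell from 11.1, 8.53 and 4.73 CPM in HR1 to at most 0.71 CPM in LM tumours (log2 fold change −5.08, s.e. 0.53, adjusted p = 2.2e-04, edgeR), and −4.79 without the tumour labelled HR1 replicate 1 (adjusted p = 3.4e-05, edgeR).

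The LATS kinases differed in how they separated the models. *Lats1* (chromosome 10, 7681200 to 7716461) was at 47.8, 34.0 and 40.0 CPM in HR1, 54.5, 66.9 and 43.5 CPM in LM1, and 72.1, 71.5 and 63.6 CPM in LM9. Each LM9 tumour lay above each HR1 tumour, while LM1 replicate 3 overlapped HR1. Its log2 fold change in LM1 and LM9 versus HR1 was 0.60 (s.e. 0.17, adjusted p = 0.0183, edgeR) and a two-sided exact permutation test of log2 CPM gave p = 0.0476. For LM9 alone it was 0.77 (s.e. 0.19, adjusted p = 0.0120, edgeR) and for LM1 alone 0.44 (adjusted p = 0.0999, edgeR). Without the tumour labelled HR1 replicate 1 these were 0.74, 0.90 and 0.58 for LM1 and LM9 together, LM9 and LM1 (adjusted p = 0.0038, 0.0022 and 0.0210, edgeR), so that LM1 also passed. Without HR1 replicate 2 the adjusted p for LM1 and LM9 together rose to 0.0641 (edgeR), above the threshold. *Lats2* (chromosome 14, 57689662 to 57746212), itself a target of YAP and TAZ, was at 59.0, 20.1 and 28.0 CPM in HR1. It was at 40.6, 47.5 and 31.2 CPM in LM1 and at 43.3, 42.2 and 36.6 CPM in LM9. As for *Tead1*, HR1 replicates 2 and 3 lay below every LM tumour, but here the tumour labelled HR1 replicate 1 lay above all of them. With it the log2 fold change was 0.17 (s.e. 0.31, adjusted p = 0.678, edgeR), and 0.75 (s.e. 0.19, adjusted p = 0.0074, edgeR) without it. *Lats2* shares exonic bases with *Gm49361* on the same strand.

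*Amotl2* (chromosome 9, 102717091 to 102733418) encodes an angiomotin that binds YAP at cell junctions and is also a target gene. It was at 72.5, 54.3 and 77.7 CPM in HR1, 138, 168 and 105 CPM in LM1, and 137, 134 and 111 CPM in LM9. No LM tumour was as low as any HR1 tumour, the one labelled HR1 replicate 1 included. LM1 and LM9 against HR1 had a log2 fold change of 0.96 (s.e. 0.19, adjusted p = 0.0038, edgeR), and the two-sided exact permutation test gave p = 0.0238, the smallest that 6 against 3 tumours allow. It was 1.01 for LM1 and 0.90 for LM9 (adjusted p = 0.0064 and 0.0089, edgeR). When any 1 tumour was left out the fold change for LM1 and LM9 together stayed between 0.82 and 1.06 (1.01 without the tumour labelled HR1 replicate 1), and its adjusted p was at most 0.0134 (edgeR).

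*Ccn2* (chromosome 10, 24595442 to 24598683) encodes a secreted matrix-associated protein and is a widely used readout of YAP and TAZ. It was at 179, 64.8 and 108 CPM in HR1, 25.0, 23.6 and 20.7 CPM in LM1, and 16.8, 8.10 and 4.82 CPM in LM9. The models did not overlap and fell in the order HR1, LM1, LM9. Set against HR1, LM1 and LM9 had a log2 fold change of −2.95 (s.e. 0.39, adjusted p = 6.4e-04, edgeR), and the two-sided exact permutation test gave p = 0.0238, the smallest it can give. For LM1 alone it was −2.34 (s.e. 0.49, adjusted p = 0.0070, edgeR) and for LM9 alone −3.56 (s.e. 0.51, adjusted p = 0.0012, edgeR). Without the tumour labelled HR1 replicate 1 it was −2.51 for LM1 and LM9 together (adjusted p = 5.0e-04, edgeR), −1.90 for LM1 and −3.12 for LM9 (adjusted p = 0.0065 and 5.7e-04, edgeR). Without LM9 replicate 1 the value for LM9 was −4.18 (adjusted p = 0.0017, edgeR). The summed fibroblast markers were also lower in each LM tumour than in each HR1 tumour. These groups did not overlap for 29.9% of all genes, and a relation of *Ccn2* to the markers was not tested. *Ccn2* shares exonic bases with *Gm15270* on the opposite strand.

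*Ccn1* (chromosome 3, 145646971 to 145649985), a paralog of *Ccn2* and as common a readout, was not called in any of the comparisons. It was at 1030.2, 395 and 759.9 CPM in HR1, 938, 771 and 668 CPM in LM1, and 704, 957 and 414 CPM in LM9. All models overlapped, and each spread widely, with 728 ± 319 CPM in HR1, 792 ± 136 CPM in LM1 and 692 ± 272 CPM in LM9 (mean ± s.d., n = 3). Relative to HR1 its log2 fold change in LM1 and LM9 was 0.02 (s.e. 0.33, adjusted p = 0.963, edgeR) and 0.36 (adjusted p = 0.378, edgeR) without the tumour labelled HR1 replicate 1. Per exon length there was 8.15 to 9.95 times as much *Ccn1* as *Ccn2* in the HR1 tumours, 45.7 to 53.1 times as much in LM1 and 59.3 to 167 times as much in LM9. This ratio did not overlap between the models, and the tumour labelled HR1 replicate 1 had the lowest value of the 9.

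*Ankrd1* (chromosome 19, 36111965 to 36119844) encodes an ankyrin-repeat protein of muscle and stressed cells. It was at 1.16, 14.6 and 36.4 CPM in HR1, with 35, 650 and 1416 counts. In LM1 it was at 19.6, 15.7 and 12.4 CPM and in LM9 at 19.3, 16.7 and 18.1 CPM. The HR1 tumours held both the lowest and the highest level, and the LM tumours lay within a narrow band between them. In LM1 and LM9 versus HR1 its log2 fold change was −0.04 (s.e. 0.72, adjusted p = 0.970, edgeR). It was −0.59 (adjusted p = 0.112, edgeR) without the tumour labelled HR1 replicate 1 and 1.09 (adjusted p = 0.259, edgeR) without HR1 replicate 3.

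**Figure D4:**
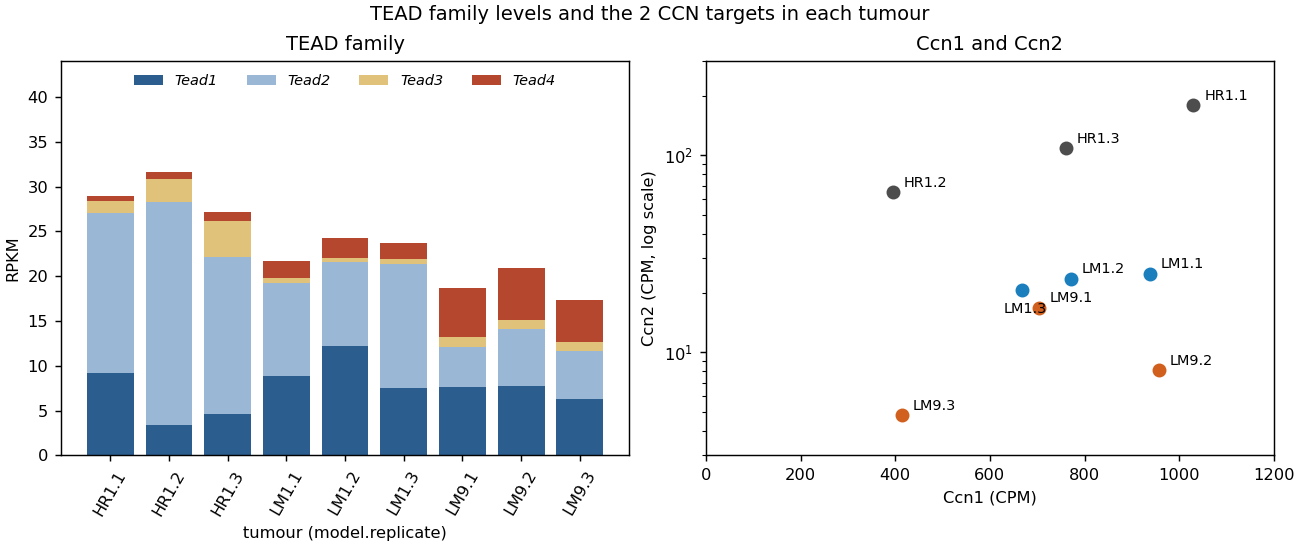
Left, RPKM of the TEAD genes stacked for each tumour (model and replicate); right, *Ccn2* (CPM, log scale) against *Ccn1* (CPM) in each tumour. *Tead2* makes up most of the HR1 bars and *Tead4* at least 27.3% of the LM9 bars, and at similar *Ccn1* levels *Ccn2* was 64.8 to 179 CPM in HR1 and 4.82 to 25.0 CPM in LM tumours.

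GGAATG, the core of the motif bound by TEAD factors, was searched on both strands (CATTCC on the other) in the RefSeq promoters of GRCm38.p6, which span 250 bases before to 50 after each annotated start. Entries were found for 7 of the 9 members, *Ccn2* and *Tead1* being those without one. The letters occurred in an entry of 6 of the 7 (*Yap1*, *Wwtr1*, *Lats2*, *Ccn1*, *Ankrd1* and *Amotl2*, but not *Lats1*), against 16.6% of all 27025 genes with an entry, or 14.7% of all 32851 promoters. They occurred in 7 of the 15 genes of the target list described below that had an entry, and in 3 of the 11 that are not members. Counted from the start, the motif began at −103 in *Ccn1*, at −210 and −123 in *Ankrd1*, at −65 in *Amotl2*, at −141 in *Yap1*, and at −136 or −170 in *Wwtr1* depending on the start used. In *Lats2* it lay in the transcript, from base 5 to base 10. A match is a description of these letters, not of binding. Several members were chosen as known targets of YAP and TAZ, which act through TEAD factors, so nothing is read from the members' share. The 250 bases before the start are shown for *Ccn1*, *Ankrd1* and *Amotl2*, the target genes among the members that had an entry and the motif before the start, with the motif in capitals. For *Amotl2* the start used lies inside the gene as placed above (102717091 to 102733418), so its bases shown and its motif lie inside the gene too.
Ccn1 (chr3:145649986-145650235, minus strand): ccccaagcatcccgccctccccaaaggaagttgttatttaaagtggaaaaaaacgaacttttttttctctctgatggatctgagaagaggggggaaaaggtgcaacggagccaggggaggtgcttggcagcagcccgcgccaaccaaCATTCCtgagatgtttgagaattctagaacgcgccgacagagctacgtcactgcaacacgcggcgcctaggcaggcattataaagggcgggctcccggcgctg
Ankrd1 (chr19:36119845-36120094, minus strand): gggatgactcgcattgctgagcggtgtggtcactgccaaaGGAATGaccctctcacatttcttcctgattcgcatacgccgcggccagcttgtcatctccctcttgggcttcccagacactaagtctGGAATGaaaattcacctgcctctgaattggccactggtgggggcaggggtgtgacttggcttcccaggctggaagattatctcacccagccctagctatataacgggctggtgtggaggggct
Amotl2 (chr9:102717554-102717803, plus strand): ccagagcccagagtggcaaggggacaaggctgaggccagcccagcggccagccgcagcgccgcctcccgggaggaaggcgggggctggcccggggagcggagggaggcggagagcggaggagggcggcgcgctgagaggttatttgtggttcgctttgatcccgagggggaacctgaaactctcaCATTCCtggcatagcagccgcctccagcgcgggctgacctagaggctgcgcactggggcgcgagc
*Ccn1* and *Amotl2* hold 1 copy each in these windows, in CATTCC orientation, and *Ankrd1* holds 2 copies in GGAATG orientation. Of these genes *Amotl2* was called in LM1 and LM9 versus HR1, and *Ccn1* and *Ankrd1* were not.

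In LM9 versus LM1 none of the 9 genes passed (0 of 9 in edgeR's quasi-likelihood test, 1 at an unadjusted p under 0.05, 1 with DESeq2 and 0 with limma-voom), against 22.0% of all genes (11.5% higher, 10.6% lower). *Wwtr1* and *Ccn2*, 2 of 9, did not overlap between the models, against 63.0% of all genes. *Ccn2* was at −1.22 on the log2 scale (s.e. 0.47, adjusted p = 0.0966, edgeR). Without the tumour labelled HR1 replicate 1 its adjusted p was 0.0375 (edgeR) and 1 of 9 genes passed, against 45.5% of all genes. *Ccn2* also passed without LM9 replicate 1, which has the highest level in LM9, at −1.84 (adjusted p = 0.0430, edgeR), and with any 1 tumour left out the value lay between −1.84 and −0.89.

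A wider list of 22 YAP/TAZ targets, in which 5 members stand (*Ccn1*, *Ccn2*, *Ankrd1*, *Amotl2* and *Lats2*), split in direction. In LM1 and LM9 versus HR1, 9 of 22 passed, 6 higher and 3 lower, with a median log2 fold change of 0.00. That is 40.9%, near the 43.6% of all genes. *Nuak2*, a kinase that promotes YAP activity, rose from 2.08 to 2.93 CPM in HR1 to 26.8 to 29.9 CPM in LM1 and 14.9 to 17.4 CPM in LM9 (log2 fold change 3.16, s.e. 0.18, adjusted p = 1.9e-05, edgeR). *Foxf2*, a forkhead factor, rose from 5.02 to 9.08 CPM to 14.8 to 29.7 CPM in LM tumours (log2 fold change 1.73, adjusted p = 5.2e-04, edgeR). The transposon of the LM lines holds a splice donor of *Foxf2* exon 1, and reads from it cannot be told apart here from reads of the gene. *Asap1*, an Arf GTPase-activating protein, was at 155 to 203 CPM in HR1, 269 to 388 CPM in LM1 and 611 to 657 CPM in LM9, and was called (log2 fold change 1.30, adjusted p = 4.5e-04, edgeR). *Ptpn14*, which binds YAP, was at 72.6 to 94.2 CPM in HR1 and 95.0 to 146 CPM in LM tumours (log2 fold change 0.56, adjusted p = 0.0242, edgeR), a call lost without HR1 replicate 2, LM9 replicate 1 or LM9 replicate 2 (adjusted p of 0.0821, 0.0531 and 0.0589). *Igfbp3*, an insulin-like growth factor binding protein, fell from 2.91 to 22.4 CPM to 0.41 to 2.04 CPM (log2 fold change −3.07, s.e. 0.62, adjusted p = 0.0047, edgeR). The level of 22.4 CPM was that of HR1 replicate 2, without which the value was −2.10 (adjusted p = 0.0222, edgeR), and −1.82 for LM1 alone (adjusted p = 0.0742, edgeR) against −2.79 with it. The call for LM1 alone was also lost with limma-voom (adjusted p = 0.0590) and without any 1 LM1 tumour (adjusted p of 0.0725 to 0.0833, edgeR). In the fit that left out the tumour labelled HR1 replicate 1, *Nuak2* was at 3.09, *Foxf2* at 2.01, *Asap1* at 1.19, *Ptpn14* at 0.59 and *Igfbp3* at −3.22 on the log2 scale, all still called. Without that tumour 14 of 22 passed, 9 higher and 5 lower, 63.6% against 56.0% of all genes.

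For LM1 alone 10 of the 22 targets passed, 4 higher and 6 lower, and for LM9 alone 12, of which 8 were higher and 4 lower, which is 45.5% and 54.5% against 35.5% and 42.3% of all genes. These counts were 15 and 16 without the tumour labelled HR1 replicate 1, where 52.8% and 55.7% of all genes passed. In LM9 versus LM1, 5 of 22 passed, 22.7% against 22.0% of all genes. Without the tumour labelled HR1 replicate 1 it was 12 of 22, 54.5% against 45.5% of all genes. *F3*, which encodes tissue factor, was at 5.52 to 5.70 CPM in LM9 and 1.37 to 2.04 CPM in LM1 (log2 fold change 1.76, adjusted p = 0.0140, edgeR), a call lost without LM1 replicate 1 or 3 or LM9 replicate 1 or 2 (adjusted p of 0.0509 to 0.0667). *Axl*, a receptor tyrosine kinase, was at 559 to 621 CPM in LM9 and 272 to 344 CPM in LM1 (log2 fold change 0.89, adjusted p = 0.0044, edgeR), and *Asap1* was also higher in LM9 (0.92, adjusted p = 0.0084). The RNA-binding protein gene *Rbms3* was lower in LM9, at 4.33 to 8.52 CPM against 17.4 to 18.5 CPM (log2 fold change −1.59, adjusted p = 0.0083, edgeR). *Nuak2* was lower too (−0.81, adjusted p = 0.0142), a call lost without LM1 replicate 1 or LM9 replicate 2 or 3 (adjusted p of 0.0588 to 0.0694).

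**Figure D5:**
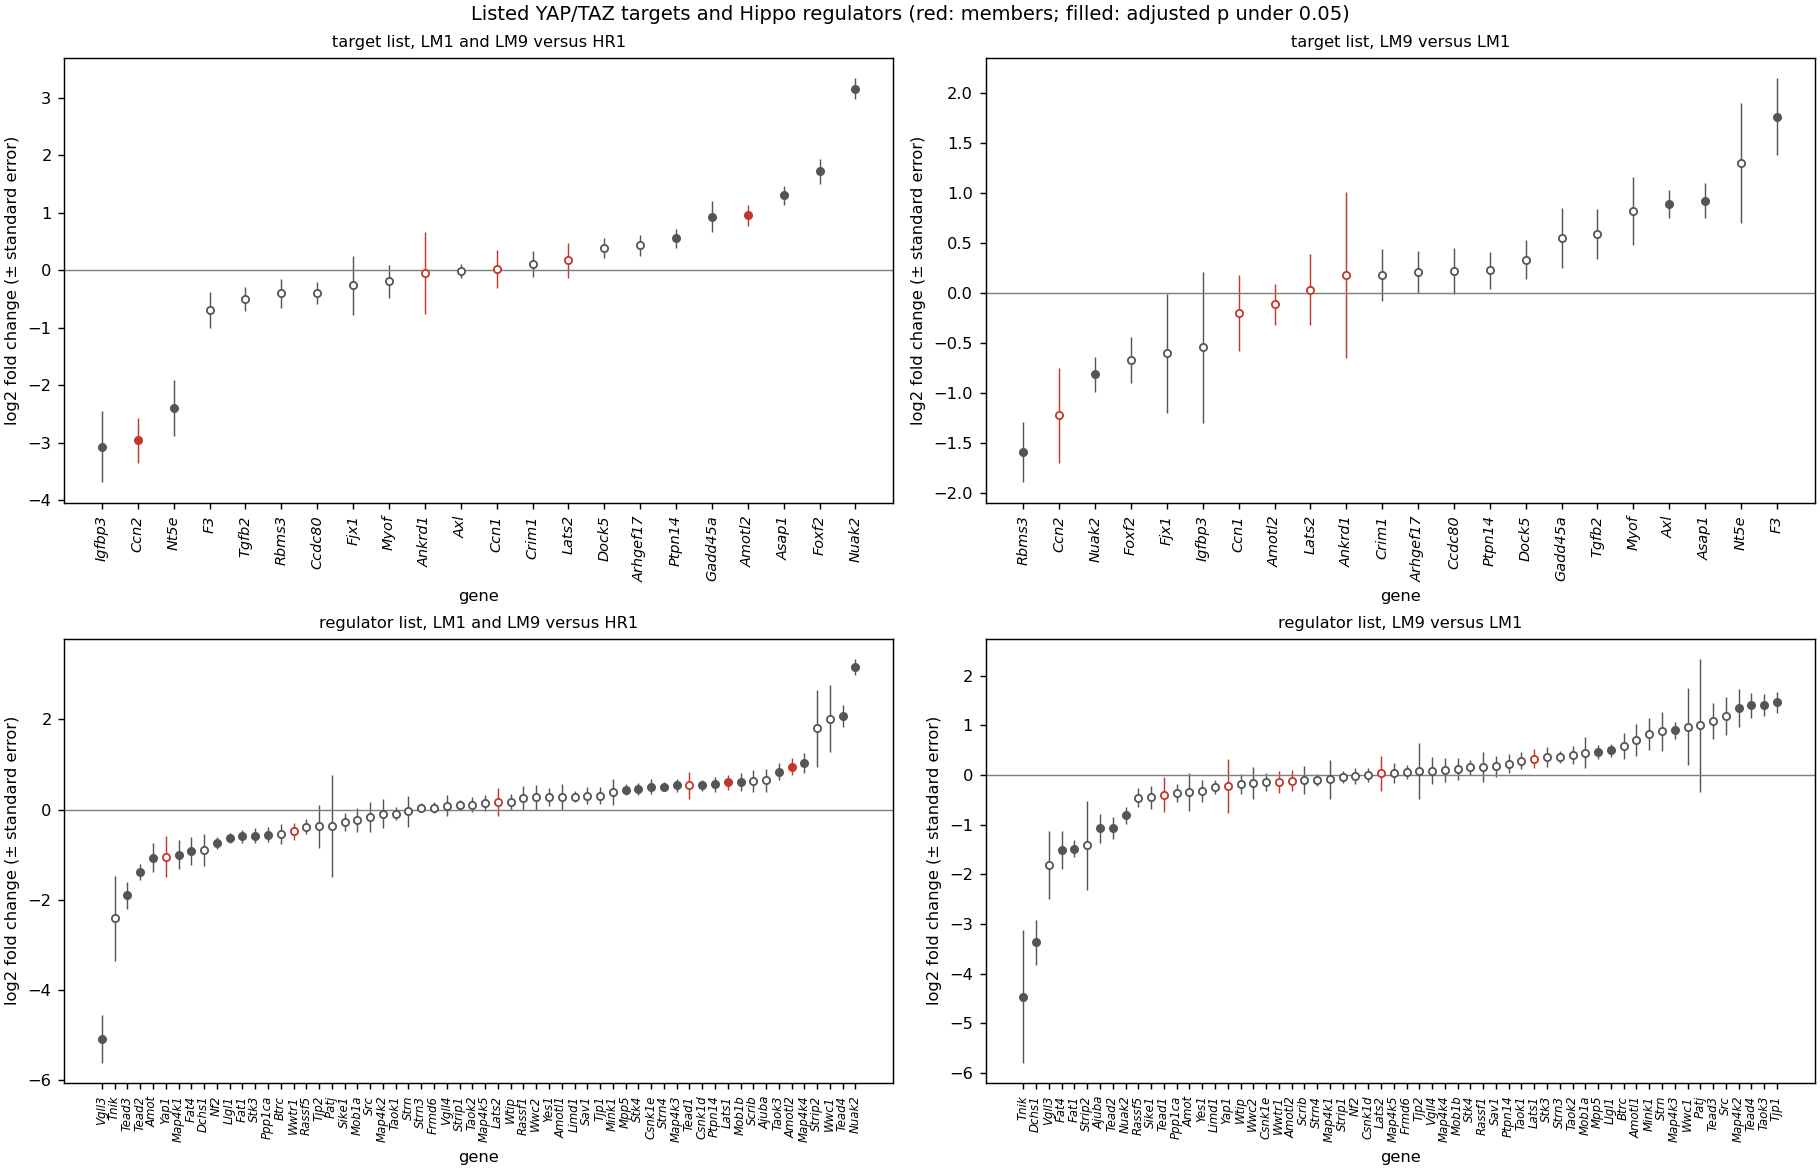
Log2 fold change ± standard error of the listed targets (top) and Hippo regulators (bottom) in LM1 and LM9 versus HR1 (left) and in LM9 versus LM1 (right), sorted by value; red marks the 9 members, and filled points have an adjusted p under 0.05 in edgeR's quasi-likelihood test. *Nuak2* at 3.16 and *Vgll3* at −5.08 lie at the ends of the left panels.

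Of 64 listed Hippo regulators 60 were among the genes, 6 of them members. In LM1 and LM9 versus HR1, 25 of 60 passed, 14 higher and 11 lower, 41.7% against 43.6% of all genes. In the core kinase cassette *Lats1*, *Mob1b* and *Stk4* were higher and *Stk3* lower, 4 of 7 genes where 43.6% of all genes passed. *Mob1b*, an adaptor of the LATS kinases, was at 9.01 to 15.8 CPM in HR1 and 15.8 to 18.6 CPM in LM tumours (log2 fold change 0.62, adjusted p = 0.0338, edgeR), a call that was lost without any 1 of 8 tumours (adjusted p of 0.0523 to 0.105), HR1 replicate 3 being the exception. *Map4k4*, a kinase that acts on LATS, rose from 105 to 189 CPM to 227 to 362 CPM (log2 fold change 1.03, adjusted p = 0.0061, edgeR). *Nf2*, the gene of the tumour suppressor merlin that activates LATS, fell from 104 to 159 CPM to 74.3 to 90.9 CPM (log2 fold change −0.74, s.e. 0.14, adjusted p = 0.0037, edgeR). Of the 6 TEAD and VGLL genes 1 was higher and 3 lower, as given for *Tead4*, *Tead2*, *Tead3* and *Vgll3*. For LM1 alone 16 regulators passed, 9 higher and 7 lower, and for LM9 alone 27, of which 15 were higher and 12 lower, of 60 each, where 35.5% and 42.3% of all genes passed. With the tumour labelled HR1 replicate 1 left out, *Map4k4* was at 0.83 and *Nf2* at −0.89 on the log2 scale, both called, and *Mob1b* at 0.48, not called. Without that tumour 37 passed for LM1 and LM9 together, 19 higher and 18 lower, 61.7% against 56.0% of all genes, and 28 and 36 passed for LM1 and LM9 alone, against 52.8% and 55.7%.

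In LM9 versus LM1, 14 of 60 regulators passed, 7 in each direction, 23.3% against 22.0% of all genes. Without the tumour labelled HR1 replicate 1, 28 passed, 17 higher and 11 lower, 46.7% against 45.5% of all genes. The cadherins *Dchs1*, *Fat4* and *Fat1*, which act upstream of the kinases, were lower in LM9, 3 of 3 where 10.6% of all genes were lower. Of the groups into which the regulators were sorted, this small one had the largest share called, so nothing is read from that share. *Fat1* was at 57.0 to 62.6 CPM in LM9 and 136 to 198 CPM in LM1 (log2 fold change −1.48, s.e. 0.17, adjusted p = 0.0012, edgeR), and *Dchs1* at 0.14 to 0.27 against 1.97 to 2.21 CPM (−3.37, adjusted p = 0.0024). The LM9 levels of *Dchs1* rested on 9, 6 and 12 counts. *Fat4* was at 3.65 to 5.72 against 10.5 to 16.5 CPM (−1.51, adjusted p = 0.0247). *Ajuba*, a LIM protein that inhibits LATS, was at 58.9 to 61.6 CPM in LM9 and 119 to 134 CPM in LM1 (−1.07, adjusted p = 0.0314). *Tjp1*, which encodes the junction protein ZO-1, was higher in LM9, at 188 to 208 against 62.0 to 87.8 CPM (log2 fold change 1.47, adjusted p = 0.0032, edgeR). So were the kinases *Taok3* (52.4 to 61.3 against 15.4 to 26.6 CPM, adjusted p = 0.0041, edgeR) and *Map4k2* (19.8 to 26.5 against 7.19 to 10.1 CPM, adjusted p = 0.0348, edgeR), and *Tead4* (log2 fold change 1.41, adjusted p = 0.0071). The calls of *Ajuba* and *Map4k2* were lost without any 1 of the 6 tumours compared, with adjusted p of 0.0750 to 0.0996 and 0.0696 to 0.126, that of *Map4k2* also with library size only (0.0503), and that of *Fat4* without any but LM9 replicate 2 (0.0579 to 0.0981).

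The genes most like each member were found by the mean absolute difference of mean-centred log2 CPM over the 9 tumours, as a description. For *Yap1* they were *Tmem123* (0.18) and *Cfap300* (0.21), both within 1 Mb of it. For *Ccn2* they were *Apcdd1* (0.32) and *Nkd2* (0.33), which encode inhibitors of Wnt signalling, at 396 to 719.9 and 213 to 492 CPM in HR1 and at most 139 and 52.4 CPM in LM tumours. *Ankrd1* was most like *Loxl4* (0.15), a lysyl oxidase gene, and *Traf1* (0.18), which shared its low level in the tumour labelled HR1 replicate 1 (14.1 and 2.36 CPM) and its high level in HR1 replicate 3 (412 and 54.3 CPM). *Amotl2* was most like *Msl2* and *Pik3ca* (0.09 each), the latter at 62.1 to 88.7 CPM in HR1 and 109 to 184 CPM in LM tumours. All models carry a PIK3CA transgene, and whether its reads were counted for *Pik3ca* was not tested. *Lats1* was most like *Hipk1* and *Myo9a* (0.05 each), *Wwtr1* like *Ngrn* and *Gng12* (0.07 each), *Tead1* like *Dennd4b* (0.10) and *Zfp719* (0.13), and *Lats2* like *Zfp629* (0.08) and *Spry4* (0.11). *Ccn1* was most like *Tyw3* and *Slc22a15* (0.22 each). The genes most like *Ccn2* were the furthest from their member.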

How the data were processed

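RNA was measured in sorted GFP+ cells of 9 tumours, 3 each of HR1, LM1 and LM9, grouped by the sample titles. The authors aligned 50-nt single-end reads to mm10 with STAR and deposited, per gene, the whole-number count of read 5′ ends on exons (qCount of QuasR, exon union), not normalized. Of 14108 Entrez numbers 14085 matched a symbol, and 14086 genes passed filterByExpr. Counts were tested with edgeR 4.0.16 (TMM, robust quasi-likelihood F-test) in R 4.3.3, fitting all 3 groups in 1 model, with Benjamini-Hochberg adjustment over all genes. Standard errors are the fold change divided by the square root of F. For members the difference in log2(CPM + 0.1) also had a two-sided exact permutation test, whose smallest p is 0.0238 with 6 against 3 tumours and 0.1 with 3 against 3. Exon lengths came from a GENCODE annotation of GRCm38, and neighbours and promoters from RefSeq (GRCm38.p6). Duplicate reads cannot be told from separate molecules, so depth limits cover counting error only.

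Members, gene lists and designs were chosen with earlier results of these data known. Named list genes are the 4 largest increases and 4 largest decreases per list in LM1 and LM9 versus HR1 and in LM9 versus LM1, members left out, if called, not overlapping between groups and averaging 1 CPM or more, and all of them where fewer. For each member the 2 genes most like it were also named. The genes around *Yap1* and the TEAD shares were chosen after values were seen. Alternatives were other size factors (RLE, library size), other filters, DESeq2 1.42.0, limma-voom (limma 3.58.1), no robust fit, only the tumours compared, the replicate block, and each tumour left out. Tables and figures used pandas 2.3.3, numpy 2.4.6 and matplotlib 3.10.9 in Python 3.11.15.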

Additional observations from a re-analysis of the deposited data

Results flagged for a closer look

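For 6 genes of the target and regulator lists the LM1 and LM9 models differed from HR1 in opposite directions, at least 1 of these differences was called, and the difference between LM9 and LM1 itself passed edgeR's quasi-likelihood test (Benjamini-Hochberg). The log2 fold change of LM9 versus LM1 was 1.76 for *F3*, 0.89 for *Axl*, −1.59 for *Rbms3*, 1.47 for *Tjp1*, −3.37 for *Dchs1* and −1.48 for *Fat1*. Against HR1, *Axl* had a log2 fold change of −0.46 in LM1 (adjusted p = 0.0325, edgeR) and 0.43 in LM9 (adjusted p = 0.0373, edgeR). The call in LM1 was lost without any 1 tumour other than HR1 replicate 1 and LM1 replicate 3 (adjusted p of 0.0561 to 0.132), with library size only (0.0752) and with only the tumours compared (0.0931), and the call in LM9 without LM1 replicate 2 or any 1 LM9 tumour (adjusted p of 0.0568 to 0.124) and with only the tumours compared (0.0749). For *F3* the values were −1.57 (adjusted p = 0.0130, edgeR) and 0.20 (adjusted p = 0.694, edgeR), and without the tumour labelled HR1 replicate 1 the latter was −0.10, so its opposite direction rested on that tumour. Its call in LM1 was lost without LM1 replicate 1 or 3 (adjusted p = 0.0559 and 0.0511, edgeR) and with only the tumours compared (0.0533). *Tjp1* had −0.42 in LM1 and 1.05 in LM9, *Rbms3* 0.39 and −1.20, *Dchs1* 0.79 and −2.59, and *Fat1* 0.15 and −1.33, with an adjusted p under 0.05 in LM9 and not in LM1. Without HR1 replicate 2, *Tjp1* (−0.62, adjusted p = 0.0275, edgeR) and *Dchs1* (1.19, adjusted p = 0.0471, edgeR) passed in LM1 too. The *Rbms3* call in LM9 was lost without LM9 replicate 3 (adjusted p = 0.0511, edgeR). Without the tumour labelled HR1 replicate 1 the directions of the 6 genes other than *F3* were the same. None of the 9 members was among these genes.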

How the results depend on the processing

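Of 33 called single-gene values none was reversed by an alternative. Reversed, uncalled values were those of *Ankrd1* with limma-voom (0.80 for LM1 and LM9 versus HR1, 0.71 for LM1) and with the replicate block (0.31 and 0.25), and of *Lats2* in LM9 versus LM1 with library size only (−0.035). The replicate numbers did not pair the tumours (correlations of their deviations from −0.113 to 0.137). Among the members and the genes named from the lists, the replicate block lost 4 calls, those of *Ptpn14* and *Fat4* in LM1 and LM9 versus HR1, *Mob1b* in LM9 versus HR1 and *Map4k2* in LM9 versus LM1 (adjusted p of 0.0525, 0.0684, 0.0518 and 0.0676), and gained that of *Ccn2* in LM9 versus LM1, where 1 member then passed, as with DESeq2 and with only the tumours compared (1 each). Over the lists, in the order LM1 and LM9, LM1 and LM9 versus HR1 and LM9 versus LM1, 8, 11, 10 and 6 targets and 22, 14, 24 and 10 regulators passed with the block, against 9, 10, 12 and 5 targets and 25, 16, 27 and 14 regulators without it. The *Fat4* call for LM1 and LM9 was also lost with limma-voom (0.0704). Without the tumour labelled HR1 replicate 1 the *Fat4* value was −0.40 (adjusted p = 0.171, edgeR), against −0.91 with it. That call was lost as well without LM1 replicate 1 or 3 or LM9 replicate 1 or 3 (0.0881 to 0.0926, edgeR). The *Mob1b* call for LM9 was lost with library size only (0.0502) and with only the tumours compared (0.0972), and the *Ajuba* call for LM1 with only the tumours compared (0.0512). DESeq2 also called *Yap1* in LM1 and LM9 versus HR1 (adjusted p = 0.0497). With only the tumours compared, 3008 genes and 10 regulators passed in LM1 versus HR1, and 7709 genes, 12 targets and 29 regulators in LM9 versus LM1. The cause was not tested.

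With each tumour left out in turn, members called ranged from 3 to 6 in LM1 and LM9 versus HR1, 2 to 5 in LM1, 3 to 6 in LM9 and 0 to 1 in LM9 versus LM1. Members whose groups did not overlap ranged from 2 to 5, 2 to 5, 4 to 6 and 2 to 5. Targets ranged from 8 to 14, 6 to 15, 7 to 16 and 3 to 12, regulators from 18 to 37, 10 to 28, 17 to 36 and 7 to 28, and all genes from 4928 to 7902, 3121 to 7453, 3768 to 7862 and 1150 to 6413. The highest counts of called members, targets, regulators and genes came without the tumour labelled HR1 replicate 1. Log2 fold changes that changed sign ranged, in the order LM1 and LM9, LM1 and LM9 versus HR1, from −1.43 to 0.12, −1.32 to 0.23 and −1.54 to 0.0066 for *Yap1*, −0.11 to 0.75, −0.13 to 0.73 and −0.10 to 0.76 for *Lats2*, −0.27 to 0.36, −0.18 to 0.46 and −0.40 to 0.26 for *Ccn1*, and −0.59 to 1.09, −0.67 to 1.00 and −0.50 to 1.18 for *Ankrd1*. For *Nfib* they ranged from −0.17 to 4.85 and, for LM9, from −0.42 to 4.61. In LM9 versus LM1 they ranged from −0.11 to 0.19 for *Lats2*, −0.53 to 0.068 for *Ccn1* and −0.27 to 0.072 for *Amotl2*.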
